A study of Mus musculus with 12 samples.

Results

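The fatty acid, sterol and sebaceous lipid genes are 37 named genes of lipid metabolism, taken from the 23735 gene models in each of the authors' deposited expression tables by exact match of the gene symbol. A symbol on several lines was represented by the line with the highest mean level, which concerned Hmgcs1 alone. By role, 3 members make fatty acids, 5 are desaturases, 6 are elongases and 8 make sterols. A further 4 regulate lipid genes, 5 make esters and waxes, 2 belong to the lipid droplet, and 4 are sebaceous or other lipid genes. Of the 37 genes, 36 were tested in at least 1 comparison. In the 3 comparisons of Foxc1 knockout cells with control cells 15 were called at least once and 22 in none, beside 19.6% of all tested genes called at least once.

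Mammalian cells build fatty acids from acetyl-CoA, lengthen them with Elovl elongases and introduce double bonds with Scd and Fads desaturases. Cholesterol is made from the same precursor through isoprenoids and squalene, and SREBP transcription factors, held back by Insig proteins when sterols are plentiful, drive the genes of both routes. In the hair follicle the sebaceous gland, which sits directly above the stem cell bulge, is the main site of wax and ester synthesis, and the mouse genes Scd1, Scd3, Elovl3, Awat2 and Mc5r are known for their roles there.

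The cells were hair follicle stem cells sorted by flow cytometry from mouse back skin, with 1 mouse named per library, and RNA was read by mRNA sequencing in 12 libraries of 7 groups. In second telogen, the resting phase, the 2 conditional knockout libraries (cKO) lacked Foxc1 through K14Cre, a keratinocyte driver, and the 2 inducible knockout libraries (iKO) lost Foxc1 through Sox9CreER, while 2 libraries were wild type (WT). The cKO and WT groups each held a male of day 42 and a female of day 46 of the Black Swiss strain. The telogen iKO group held 2 males of day 60 from a Black Swiss and C57BL/6 mix. In anagen, the growth phase, 2 iKO and 2 heterozygous libraries (Het) came from males of day 30 of that mix. All Sox9CreER mice, Het mice included, were given tamoxifen by injection, which also switched on a YFP reporter, and the Het label reads FOXC1-Sox9CreER-heterozygous. One further library each came from an Agouti-strain female of about day 26 in anagen substage II and of about day 23 in first telogen, both named Shh-Het in the cell type label and WT in the title. K14Cre acts in the whole skin epithelium and Sox9CreER in Sox9-expressing cells, so the cKO and iKO differ in driver as well as in time of loss.

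Each value is the authors' FPKM (fragments per kilobase of transcript, scaled to the mapped fragments of a library), deposited as 1 pooled value per group, so the spread between libraries and the sequencing depth are unknown. A gene was called when the q-value of the authors' Cuffdiff test was below 0.05, and higher, lower, rose and fell are used of called genes. The standard error (SE) given with a log2 fold is that fold divided by the deposited test statistic and is approximate. Foxc1 itself was 1.40 FPKM in anagen iKO and 23.9 in Het cells, 1.59 in telogen cKO and 26.5 in WT cells, and 3.17 in telogen iKO and 27.5 in WT cells. The stem cell markers Cd34, Lgr5, Lhx2, Sox9, Nfatc1, Tcf3 and Itga6 ranged from 19.7 to 883 FPKM over the 7 groups, while Krt15 was listed at 0 in 3 groups and at 3294 FPKM or more in the other 4. Summed fibroblast markers reached 1025 FPKM in anagen II and 2107 in first telogen cells, against 13.5 to 103 in the other 5 groups. In bulk RNA, fewer cells of a type and less RNA per cell cannot be told apart.

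Across the 7 groups some lipid genes were steady and others varied widely. Acly, which makes cytosolic acetyl-CoA, ranged from 35.2 to 46.0 FPKM, and Acaca, which makes malonyl-CoA, from 6.18 to 8.92 FPKM. Fasn, the fatty acid synthase, lay between 13.8 and 20.0 FPKM. The SREBP gene Srebf1 varied 1.36-fold between its highest and lowest group, and Srebf2 varied 1.71-fold. Far wider ranges were seen for Fads2 at 122-fold and Scd3 at 71.7-fold, both desaturases, followed by Elovl4 at 13.4-fold, Fa2h at 11.8-fold and Cidea at 11.6-fold. Apoe, a lipoprotein component, was the most abundant member in every group, at 3781 to 10309 FPKM. Between 32 and 36 members had at least 1 FPKM in a group, and the lowest members with a value were Pparg, Mc5r, Scd3 and Fads2, each under 1 FPKM in at least 2 groups.

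**Figure D1:**
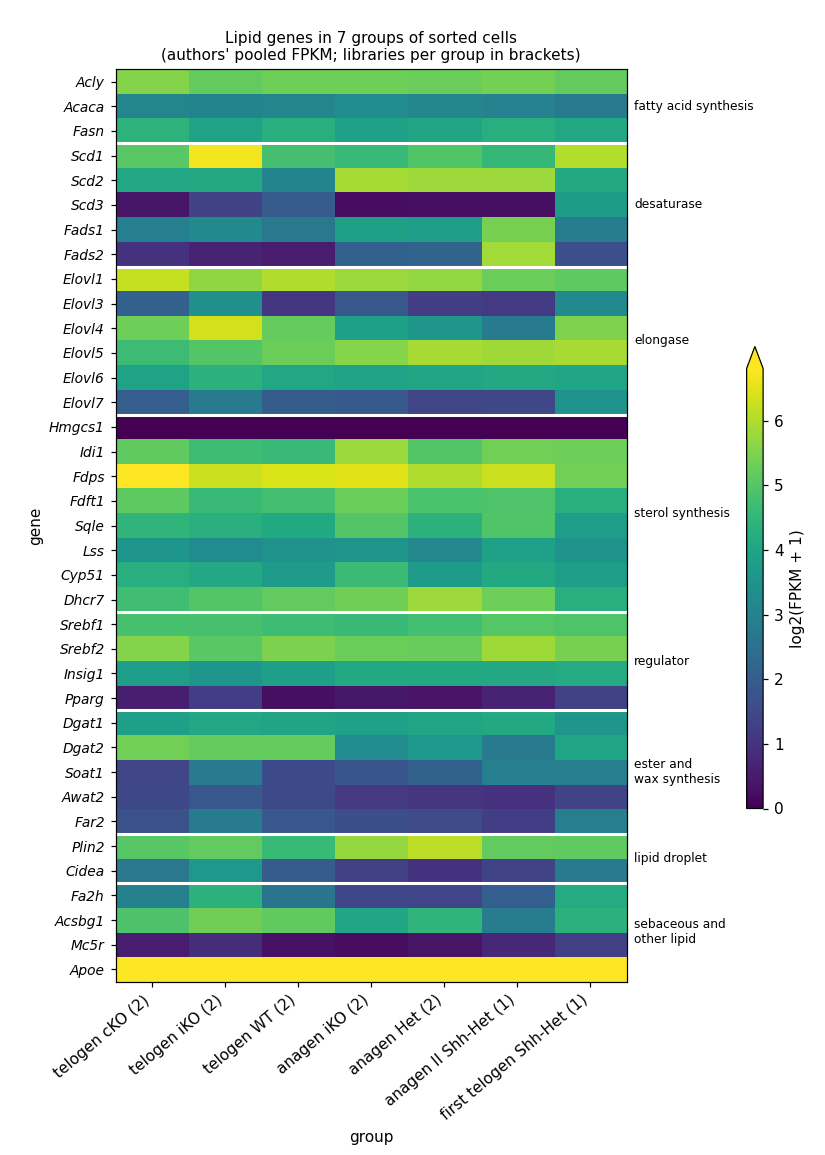
Level of the 37 lipid genes as log2(FPKM + 1) in the 7 groups, 1 pooled value per group and gene from the joint table, with the number of libraries in brackets and genes ordered by role. Apoe, at 3781 FPKM or more, lies above the colour scale, and Hmgcs1 is listed at 0 in every group.

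Some members are uncertain as measured. Hmgcs1, the synthase that makes HMG-CoA, is present on 2 lines placed on an unassigned piece of chromosome 13 and was listed at 0 in every group, so nothing can be said of it. Of the 50-base stretches of Fdps transcripts in GENCODE vM21, 64.1% also occur in transcripts of other genes, mainly the predicted gene Gm43738. The same share was 49.1% for Acaca, 20.0% for Idi1 and 10.9% for Fdft1, so reads of these genes may be split between copies. Among the Scd genes it was 4.61% for Scd1, 4.01% for Scd2 and 6.54% for Scd3. The models of Elovl1 and Cdc20, Fdft1 and Ctsb, and Srebf1 and Rai1 share a locus in the tables, and that of Far2 covers 4 other genes. Fads1 shares its locus with Mir6993, listed at 212 FPKM in anagen iKO, 187 in anagen Het and 0 in every other group. Lss, Awat2, Cidea, Elovl3 and Srebf2 also have another model at their locus. The deposited statistic of Scd2 was close to 0 beside its fold, so that its SE was 9.66 in the anagen comparison and 66.1 or more in both telogen comparisons with WT cells, and it was called in no comparison.

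Anagen iKO cells were compared with Het cells of the same strain, sex, age and driver. Genes of the sterol route rose: 4 of the 7 tested sterol synthesis genes were higher and none was lower. In all, 5 of 34 tested members were higher in iKO cells and 0 lower by the authors' Cuffdiff test, with 11 members at an unadjusted p below 0.05. Over all genes 10.3% were called, 5.18% higher and 5.08% lower. The median log2 of the (FPKM + 1) ratio was 0.50 over the sterol synthesis genes, 0.05 over the tested members and -0.02 over all tested genes.

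Cyp51, which removes a methyl group from lanosterol, had 25.4 FPKM in iKO cells against 13.0 in Het cells. Its log2 fold was 0.96 (SE 0.24), with q = 0.00106 in the authors' deposited table, a 1.94-fold difference. Idi1, the isopentenyl diphosphate isomerase, had 56.8 FPKM in iKO cells against 32.6 in Het cells. Its log2 fold of 0.80 (SE 0.23) had the same q as Cyp51 in the authors' deposited table. Sqle, the squalene epoxidase, had 32.7 FPKM in iKO cells against 20.8 in Het cells. The log2 fold was 0.66 (SE 0.24), with q = 0.00578 in the authors' deposited table. Fdps, which makes farnesyl diphosphate, had 95.0 FPKM in iKO cells against 66.8 in Het cells, with a log2 fold of 0.51 (SE 0.26) and q = 0.0389 in the authors' deposited table. These 4 genes act in one route, from isopentenyl diphosphate to the lanosterol derivatives, and each was 1.42-fold to 1.94-fold higher in iKO cells.

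Of the other tested sterol genes, Lss, the lanosterol synthase, had 11.2 FPKM in iKO cells and 8.62 in Het cells, and was not called (q = 0.276 in the authors' deposited table). Fdft1, the squalene synthase, had 40.3 FPKM in iKO cells and 30.4 in Het cells, with a log2 fold of 0.41 but an SE of 1.03. Dhcr7, which carries out the last step to cholesterol, had 41.3 FPKM in iKO cells and 58.3 in Het cells. Its log2 fold of -0.50 (SE 0.23) had q = 0.0537 in the authors' deposited table and was not called there, but it was called lower where the same libraries were tested in the joint table. The regulators of the route had close levels in both groups: Srebf2 had a log2 fold of 0.05 (SE 0.26) and Insig1 one of 0.00 (SE 0.24), neither called.

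Outside the sterol route Elovl7, an elongase of saturated very long chain fatty acids, was the member called higher, with 2.94 FPKM in iKO cells against 1.80 in Het cells. Its log2 fold was 0.71 (SE 0.31), and q was 0.0264 in the authors' deposited table. Elovl3, an elongase of sebaceous gland and hair lipids, had 2.79 FPKM in iKO cells and 1.44 in Het cells, and just missed the threshold at q = 0.0544 in the authors' deposited table. In the joint table it was called higher. The fatty acid synthesis genes Acly, Acaca and Fasn had log2 folds from -0.14 to 0.17, none called, and 0 of 4 tested desaturases were called.

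Among 18 other tested genes of sterol synthesis and uptake 4 were higher and 0 lower in anagen iKO cells, with a median log2 ratio of 0.27. Msmo1, a sterol methyl oxidase, and Acat2, the acetoacetyl-CoA thiolase, were both 1.68-fold higher. Insig2 was 1.51-fold higher and Nsdhl, a sterol dehydrogenase, 1.47-fold higher. Of 13 cholesterol efflux and LXR target genes 2 were lower and 0 higher: Abca1, the cholesterol exporter, was 1.68-fold lower and Mylip, a ubiquitin ligase, 1.49-fold lower. Among 14 other fatty acid synthesis and elongation genes 1 was higher, Fads3 at 1.66-fold, and 0 lower. Of 10 fatty acid activation and transport genes 2 were higher, Fabp5 at 1.61-fold and Acsl4 at 1.58-fold, and 2 lower, Slc27a3 at 1.55-fold and Vldlr at 1.57-fold. Of 17 ceramide and epidermal barrier genes 1 was lower, Cers3. None of 15 lipid storage and 14 fatty acid oxidation genes was called in either direction. Markers of other cells differed in the same comparison. Summed fibroblast markers stood at 54.7 FPKM in iKO and 103 in Het cells, with 3 of 6 called lower. Summed immune markers stood at 24.3 FPKM in iKO and 15.3 in Het cells, with 1 of 6 tested called higher, Cd74. In the joint table Cd74 alone had 17.5 FPKM in iKO and 7.11 in Het cells. The median log2 ratio of the tested immune markers was -0.16. Of 7 tested stem cell markers 2 were called lower, and of 5 melanocyte markers 0. Their part in the result was not tested.

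Promoter sequences of RefSeq on build GRCm38.p6, spanning 250 bases before to 50 bases after each start, were found for 25 of the 37 members. On both strands CCAAT, the letters bound by the factor NF-Y, occurred in the promoters of 18 of these 25 genes, and in all 5 sterol synthesis genes with a sequence, namely Hmgcs1, Idi1, Lss, Cyp51 and Dhcr7. It occurred in 60.0% of the 35 member promoters, against 37.4% of all 32851 promoters of the same length. TCACNCCAC, a sterol regulatory element, occurred in 1 member, Hmgcs1, and in 1.24% of all promoters. GTAAACA, a forkhead motif, occurred in Elovl6 and Apoe and in 3.65% of all promoters. In the members, no match of one motif overlapped a match of another. A match describes letters in a window and is not evidence of binding. The 250 bases before the start are given for the 2 sterol genes with the largest log2 folds in anagen, chosen after their values were seen, and for Elovl7 and Scd3, which were called the same way in 2 knockout comparisons. Capitals mark CCAAT or its reverse complement, ATTGG. Cyp51 is read from chr5:4104698-4104947 on the minus strand, Idi1 from chr13:8885356-8885605, Elovl7 from chr13:108214154-108214403 and Scd3 from chr19:44203038-44203287, the last 3 on the plus strand.
Cyp51: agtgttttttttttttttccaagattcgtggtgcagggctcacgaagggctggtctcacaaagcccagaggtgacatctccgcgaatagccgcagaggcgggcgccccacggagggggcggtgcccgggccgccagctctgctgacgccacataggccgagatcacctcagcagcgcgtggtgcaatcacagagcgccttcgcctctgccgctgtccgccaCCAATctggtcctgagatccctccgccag
Idi1: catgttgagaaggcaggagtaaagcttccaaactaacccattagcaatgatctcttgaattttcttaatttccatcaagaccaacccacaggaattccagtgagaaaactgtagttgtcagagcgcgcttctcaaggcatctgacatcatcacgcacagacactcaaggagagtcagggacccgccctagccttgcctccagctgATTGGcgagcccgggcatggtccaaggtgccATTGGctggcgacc
Elovl7: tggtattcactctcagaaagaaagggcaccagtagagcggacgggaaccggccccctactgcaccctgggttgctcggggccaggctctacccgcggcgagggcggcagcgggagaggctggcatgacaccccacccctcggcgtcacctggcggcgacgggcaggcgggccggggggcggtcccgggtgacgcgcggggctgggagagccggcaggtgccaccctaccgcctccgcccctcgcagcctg
Scd3: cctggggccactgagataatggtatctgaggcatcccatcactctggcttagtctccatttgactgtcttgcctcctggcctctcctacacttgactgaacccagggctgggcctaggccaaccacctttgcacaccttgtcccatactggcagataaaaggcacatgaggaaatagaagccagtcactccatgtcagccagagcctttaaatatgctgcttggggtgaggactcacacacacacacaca
The single match in Cyp51 lies 29 bases before the start, and those in Idi1 lie 45 and 14 bases before it. The Elovl7 stretch, with 73.6% G and C, and the Scd3 stretch, with 52.4%, hold no match.

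Second telogen cKO cells were compared with WT cells of the same strain, sexes and ages. Here 1 of 36 tested members was higher, Elovl3, and 1 was lower, Scd3. Over all genes 6.62% were called, 3.75% higher and 2.87% lower, so the members were called at about the rate of all genes. The median log2 ratio was 0.16 over the tested members and 0.00 over all tested genes.

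Elovl3 had 3.18 FPKM in cKO cells against 1.07 in WT cells. This 2.98-fold difference had a log2 fold of 1.57 (SE 0.64) and q = 0.0258 in the authors' deposited table. The model spans chr19:46206388-46222815 in build mm9 and shares its locus with Pitx3, which was listed at 0 in all 5 groups of 2 libraries. Scd3, a stearoyl-CoA desaturase of the sebaceous gland, had 0.293 FPKM in cKO cells against 2.80 in WT cells. It was 9.54-fold lower (log2 fold -3.25, SE 0.65) and had q = 0.00159 in the authors' deposited table. The Scd genes lie side by side on chromosome 19 of mm9, Scd3 at 44277777 to 44318506, Scd2 at 44368165 to 44381352 and Scd1 at 44468939 to 44482199. Scd1 had 31.0 FPKM in cKO cells and 25.8 in WT cells and was not called (q = 0.817 in the authors' deposited table). Scd2 had 15.3 FPKM in cKO cells and 7.18 in WT cells, with an SE of 70.6 on its log2 fold of 1.09.

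The sterol synthesis genes were not called in cKO cells, although 6 of 7 had the higher value there and their median log2 ratio was 0.34. Idi1 had 33.2 FPKM in cKO cells and 22.4 in WT cells, with a log2 fold of 0.57 (SE 0.31). Cyp51 had 17.5 FPKM in cKO cells and 11.9 in WT cells, and its log2 fold was 0.55 (SE 0.32). In the joint table, where both groups were tested with the other 5, Idi1 and Cyp51 were called higher and Elovl5, an elongase of polyunsaturated fatty acids, was called lower. Dhcr7 had 24.4 FPKM in cKO cells and 33.4 in WT cells, again the sterol gene with the lower value in knockout cells.

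Among the other lipid genes, 1 of 18 sterol synthesis and uptake genes was higher in cKO cells, Ebp at 1.83-fold, and 0 were lower. Of 15 other sebaceous gland and wax genes 2 were higher, Krt79 at 4.24-fold and Defb6 at 3.13-fold, and 1 was lower, Plet1 at 1.91-fold. Of 9 fatty acid activation and transport genes 2 were higher, Acsl4 at 1.80-fold and Fabp5 at 1.63-fold. Of 14 other fatty acid synthesis and elongation genes 1 was lower, Mlxipl, a carbohydrate-responsive factor, at 4.01-fold. None was called among 14 lipid storage, 17 ceramide and barrier, 15 fatty acid oxidation and 13 cholesterol efflux genes. Krt79, a keratin of the junctional zone and gland duct, had 218 FPKM in cKO cells against 51.4 in WT cells, and was 1 of 7 sebocyte and junctional zone markers called higher, with 1 called lower, Plet1. Summed fibroblast markers in the joint table were 74.6 FPKM in cKO and 23.3 in WT cells, and of 3 tested 1 was called higher, Col1a1, with 60.5 FPKM in cKO cells against 9.72 in WT cells. Summed immune markers in the joint table were 79.6 FPKM in cKO and 73.4 in WT cells, and of 4 tested 1 was called lower, Cd68 at 3.03-fold. Most of both sums was Cd74, with 73.6 FPKM in cKO and 62.0 in WT cells. Of 7 tested stem cell markers 0 were called in either direction, with a median log2 ratio of -0.14. The part of these cell types in the Elovl3 and Scd3 differences was not tested.

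The anagen and telogen knockout effects, which share no library, were compared gene by gene by a two-sided z test of the difference of both log2 folds, adjusted by Benjamini-Hochberg over 13033 genes. Of 34 members tested, 0 were called, against 0.99% of all genes, and 1 had an unadjusted p below 0.05, Plin2. The count was also 0 with folds from the joint table and with the larger of 2 SE estimates. For the sterol genes the difference, telogen minus anagen, was -0.41 (SE 0.40) for Cyp51 and -0.23 (SE 0.39) for Idi1. A difference between these 2 knockout effects was therefore not detected for any member, and Scd3 and Mc5r were not tested in anagen. Driver, time of loss, strain, sex, age, tamoxifen and control genotype differ between both comparisons along with stage. They cannot be told apart from it.

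**Figure D2:**
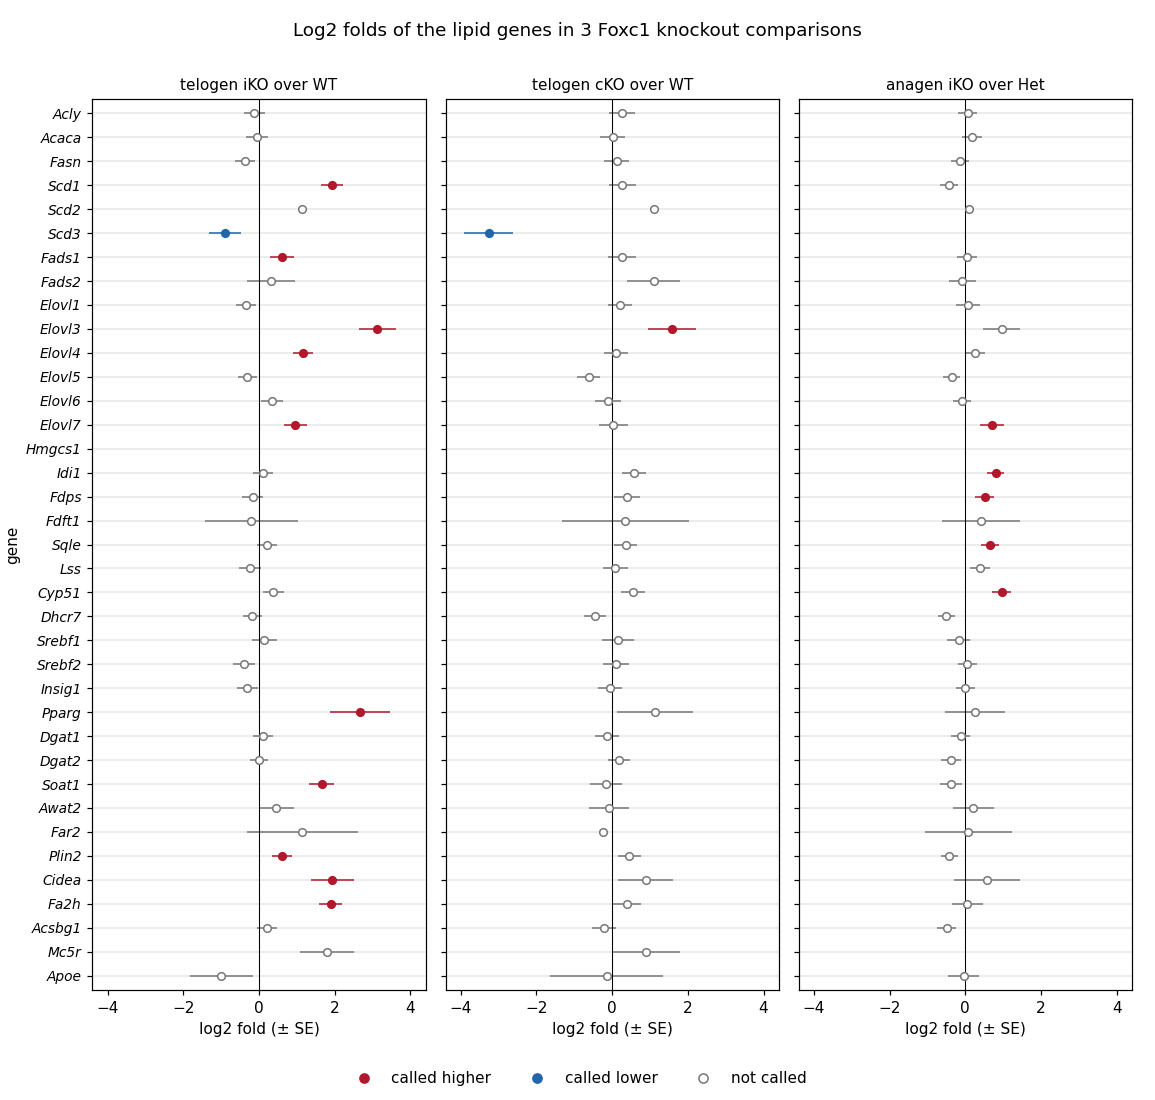
Log2 fold of each member in telogen iKO over WT, telogen cKO over WT and anagen iKO over Het cells, from the authors' deposited tables, with bars of 1 SE where it is 2 or less. Filled points are called genes; the sterol genes Idi1, Fdps, Sqle and Cyp51 are filled in the anagen panel alone, and Elovl3 is filled in both telogen panels.

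Telogen iKO cells were set against the same WT libraries in the joint table, so this comparison and that of cKO cells share their controls. Strain, sex, age, driver and tamoxifen also differ between the groups and cannot be told apart from the loss of Foxc1. With these limits, 10 of 36 tested members were higher in iKO cells and 1 lower, while 12.9% of all genes were called, 7.01% higher and 5.88% lower. The called genes included 3 of 6 elongases, 3 of 5 desaturases and both lipid droplet genes, but 0 of 7 sterol synthesis and 0 of 3 fatty acid synthesis genes. The median log2 ratio was 0.17 over the tested members and -0.02 over all tested genes.

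Elovl3 had 9.69 FPKM in telogen iKO cells against 1.11 in WT cells, 8.74-fold higher, with a log2 fold of 3.13 (SE 0.49). Elovl4, which makes the very long chain acids of barrier ceramides, had 79.4 FPKM in iKO cells against 35.6 in WT cells, a log2 fold of 1.16 (SE 0.27). Elovl7 had 5.85 FPKM in iKO cells against 3.01 in WT cells, a log2 fold of 0.96 (SE 0.31). All 3 elongases had q = 0.000444 in the authors' deposited table, the smallest q of that table. Elovl1, Elovl5 and Elovl6, which were not called, had log2 folds from -0.34 to 0.34.

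Scd1, the desaturase whose loss shrinks the sebaceous glands of mice, had 101 FPKM in iKO cells against 26.7 in WT cells, 3.79-fold higher (log2 fold 1.92, SE 0.29). Scd3 went the other way, with 1.55 FPKM in iKO cells against 2.90 in WT cells, a log2 fold of -0.90 (SE 0.43) and q = 0.0231 in the authors' deposited table. Fads1, which desaturates polyunsaturated fatty acids, had 8.44 FPKM in iKO cells against 5.56 in WT cells, with q = 0.0333 in the authors' deposited table. That call ended when the deposited p-values were adjusted within the comparison alone, or over genes with at least 1 FPKM. Its neighbour Fads2 had 0.585 FPKM in iKO cells and 0.468 in WT cells and was not called.

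Pparg, the nuclear receptor of sebocytes and adipocytes, had 1.38 FPKM in iKO cells against 0.218 in WT cells, 6.35-fold higher at a low level (log2 fold 2.67, SE 0.78, q = 0.000839 in the authors' deposited table). Soat1, which esterifies cholesterol, had 5.94 FPKM in iKO cells against 1.89 in WT cells, a log2 fold of 1.65 (SE 0.32). Fa2h, a fatty acid hydroxylase of sphingolipids, had 19.7 FPKM in iKO cells against 5.29 in WT cells, a log2 fold of 1.89 (SE 0.30). Cidea, a droplet fusion protein, had 11.4 FPKM in iKO cells against 2.98 in WT cells, a log2 fold of 1.94 (SE 0.57). Plin2, the droplet coat protein, had 35.2 FPKM in iKO cells against 23.2 in WT cells, a log2 fold of 0.60 (SE 0.27). Mc5r, the melanocortin receptor of sebaceous glands, had 0.868 FPKM in iKO cells and 0.249 in WT cells and missed the threshold at q = 0.0576 in the authors' deposited table. Of the wax genes, Awat2 and Far2 had log2 folds of 0.46 (SE 0.47) and 1.15 (SE 1.46), neither called.

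Beside these genes, 5 of 16 other sebaceous gland and wax genes were higher in telogen iKO cells and 0 lower. Krt79 was 4.05-fold higher, Awat1, a wax synthase, 3.29-fold higher, Gata6, a factor of the junctional zone and gland duct, 3.13-fold higher, and Defb6 2.72-fold higher. Of 9 fatty acid activation and transport genes 4 were higher and 0 lower: the fatty acid transporter Cd36 had 1.89 FPKM in iKO against 0.270 in WT cells, lipoprotein lipase (Lpl) was 4.30-fold higher, Acsl4 2.59-fold higher and Fabp5 1.87-fold higher. Of 13 cholesterol efflux and LXR targets 3 were higher and 0 lower, Abcg1 at 2.87-fold, Mylip at 2.24-fold and Abca1 at 2.02-fold. Among 13 other fatty acid synthesis and elongation genes 3 were higher and 1 lower. Among 16 lipid storage genes 1 was higher, Mgll, and 1 lower, Fitm2, and none of 17 ceramide and 15 fatty acid oxidation genes was called.

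Summed sebocyte and junctional zone markers stood at 437 FPKM in telogen iKO and 258 in WT cells, and 2 of the 7, Krt79 and Gata6, were called higher. They stood at 416 FPKM in cKO cells, where most of the sum was Krt79. Summed adipocyte markers were 0.404 FPKM in telogen iKO and 0.459 in WT cells, with 6 of 7 below 0.1 FPKM in both. Summed immune markers were 95.7 FPKM in iKO and 73.4 in WT cells, with 1 of 5 tested called higher, Ptprc at 2.13-fold. Most of both sums was Cd74, with 85.2 FPKM in iKO and 62.0 in WT cells. Summed fibroblast markers were 13.5 FPKM in iKO and 23.3 in WT cells, with 2 of 5 tested called lower, Col1a1 at 2.27-fold and Col1a2 at 1.53-fold. Summed melanocyte markers were 19.9 FPKM in iKO and 9.46 in WT cells, with 2 of 5 called higher. Of 7 tested stem cell markers 0 were called higher and 1 lower, Tcf3 at 1.46-fold, with a median log2 ratio of -0.41. The part of these cell types in the differences of Scd1, Elovl3, Fa2h, Cidea and Pparg was not tested.

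The order of levels placed telogen iKO cells apart from cKO cells for several of these genes. Elovl3 was highest in telogen iKO cells at 9.69 FPKM, followed among the groups of 2 libraries by telogen cKO at 3.33, anagen iKO at 2.63, anagen Het at 1.36 and telogen WT at 1.11. The steps from telogen iKO to cKO and from anagen iKO to Het were called, while the neighbours cKO and anagen iKO, and Het and WT, were not. For Scd1 the order was telogen iKO at 101, cKO at 32.4, anagen Het at 30.2, telogen WT at 26.7 and anagen iKO at 22.4 FPKM, and only the first step was called. Fa2h ran 19.7 in telogen iKO, 6.93 in cKO and 5.29 in WT cells, then 1.73 in anagen iKO and 1.66 in Het cells, with calls between telogen iKO and cKO and between telogen WT and anagen iKO. Elovl4 had the same order of groups and the same called steps, at 79.4, 38.5, 35.6, 13.3 and 11.0 FPKM. Telogen iKO against cKO cells also differed for Elovl7, Pparg and Scd3, each higher in iKO cells and adjacent in the order. Strain, sex, age, driver and tamoxifen separate those groups as well. High levels were not particular to telogen iKO cells. The single first telogen Shh-Het library had Foxc1 at 42.6 FPKM. It stood between telogen iKO and cKO cells for Elovl3 at 8.59, Scd1 at 63.8, Fa2h at 17.1 and Elovl4 at 43.8 FPKM. For Elovl7 at 10.2, Pparg at 1.52 and Scd3 at 12.5 FPKM it stood above telogen iKO cells.

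**Figure D3:**
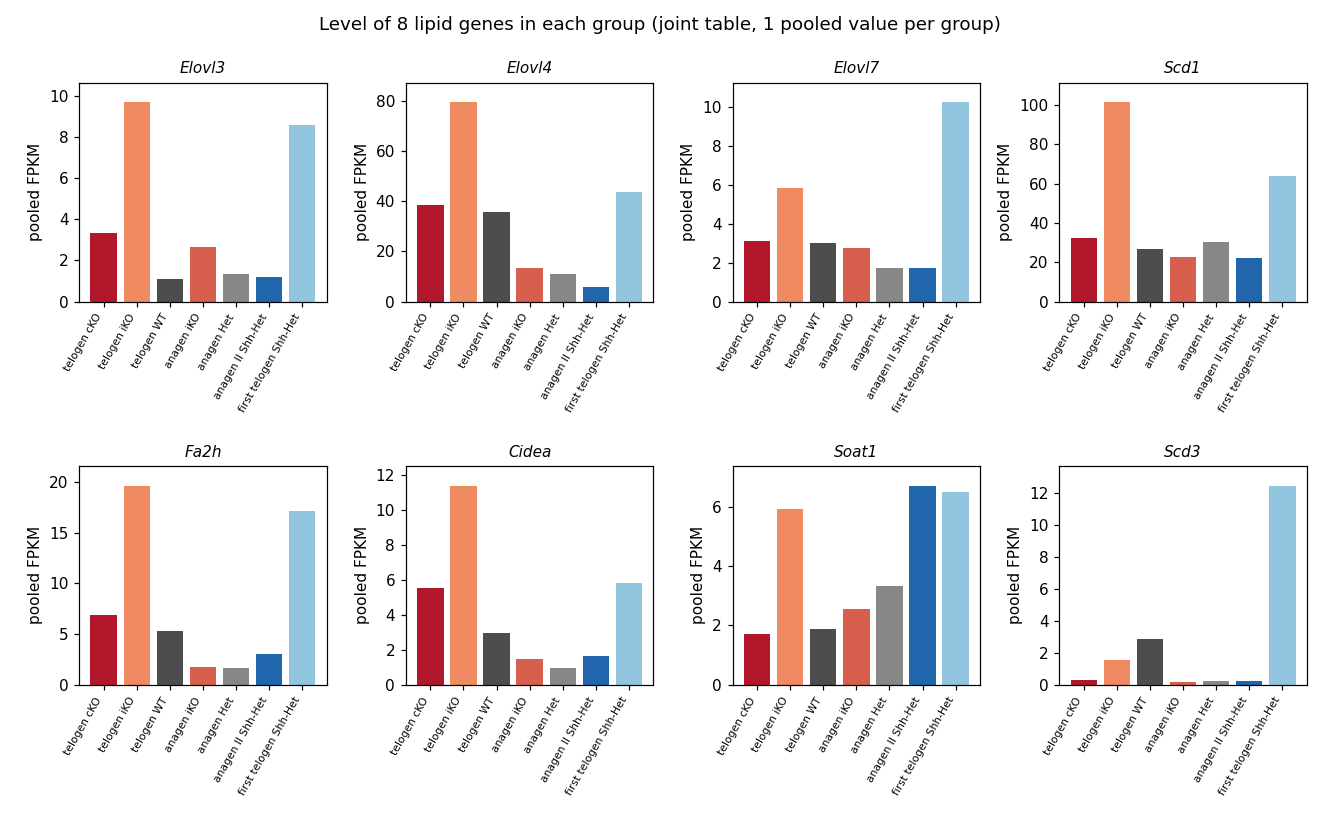
Pooled FPKM of 8 lipid genes in the 7 groups of the joint table, where each bar is 1 value with no error to show. Elovl3, Elovl4, Scd1, Fa2h and Cidea are highest in telogen iKO cells, Elovl7 and Scd3 in first telogen cells and Soat1 in anagen II cells.

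The change between second telogen and anagen was read in a pair of comparisons without a shared library. In iKO cells, of the same strain, sex and driver but of day 60 against day 30, 13 of 36 tested members were higher in telogen and 8 lower, beside 33.2% of all genes called, 17.6% higher and 15.5% lower. The remaining Foxc1 level differed between these iKO groups, with 3.17 FPKM in telogen against 1.32 in anagen. It was called higher in telogen iKO cells (log2 fold 1.26, q = 0.00156 in the authors' deposited table). In control cells, telogen WT against anagen Het, 6 of 35 members were higher and 6 lower, beside 25.4% of all genes called, 13.5% higher and 11.9% lower. Strain, sex, age, driver, tamoxifen and the Foxc1 genotype, wild type against heterozygous, differ with stage in the control pair and cannot be told apart from it. The members' median log2 ratio was -0.04 in iKO and 0.01 in control cells, against 0.01 and 0.00 over all tested genes.

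Of 35 members tested in both iKO and control cells, 6 were higher in telogen in both, namely Scd3, Elovl4, Elovl7, Dgat2, Fa2h and Acsbg1. Among all genes tested in both 10.4% were. Scd3 had 1.55 FPKM in telogen iKO against 0.174 in anagen iKO cells, and 2.90 FPKM in telogen WT against 0.216 in anagen Het cells. Dgat2, which makes triglycerides, had 35.7 FPKM in telogen iKO against 8.73 in anagen iKO cells, and 35.6 FPKM in telogen WT against 11.3 in anagen Het cells. Elovl4 was 5.98-fold higher in telogen among iKO cells and 3.22-fold higher among control cells. Acsbg1, an acyl-CoA synthetase, was 2.65-fold higher in telogen among iKO cells and 1.63-fold higher among control cells. All 6 had log2 folds of 0.70 or more in both comparisons.

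Of the same 35 members 4 were lower in telogen in both, namely Fads1, Fads2, Elovl5 and Plin2. Among all genes tested in both 8.25% were, so this count is near the background. Fads2, which starts the desaturation of polyunsaturated acids, had 0.585 FPKM in telogen iKO against 3.31 in anagen iKO cells, and 0.468 FPKM in telogen WT against 3.49 in anagen Het cells. Fads1 had 8.44 FPKM in telogen iKO against 13.5 in anagen iKO cells, and 5.56 FPKM in telogen WT against 13.2 in anagen Het cells. Elovl5, which acts on the products of Fads2, was 1.52-fold lower in telogen among iKO cells and 1.58-fold lower among control cells. Plin2 had 35.2 FPKM in telogen iKO against 52.0 in anagen iKO cells, and 23.2 FPKM in telogen WT against 69.5 in anagen Het cells. The desaturases Fads1 and Fads2 and the elongase Elovl5 act in one route of polyunsaturated fatty acid synthesis.

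Other members were called in iKO cells and not in control cells: Scd1, Elovl3, Pparg, Awat2, Cidea and Mc5r were higher in telogen and Idi1, Sqle, Cyp51 and Insig1 lower. Dhcr7 was called lower in control cells alone, at 34.7 FPKM in telogen WT against 55.0 in anagen Het cells. Mc5r was not tested there. The difference between both stage effects was tested by a z test across 13385 genes, of which 1.59% were called, and 3 of 35 members were called: Scd1, Soat1 and Fa2h. Scd1 had a log2 fold of 2.17 in iKO and -0.18 in control cells, a difference of 2.35 (SE 0.39, Benjamini-Hochberg q = 6.12e-07). Soat1 was called in opposite directions, with a log2 fold of 1.22 in iKO and -0.82 in control cells, a difference of 2.04 (SE 0.45, q = 0.00102). Fa2h had a log2 fold of 3.51 in iKO and 1.67 in control cells, a difference of 1.84 (SE 0.54, q = 0.0445), a call that ended with a more cautious SE. For Elovl3 the difference was 2.17 (SE 0.72, q = 0.110) and for Idi1 -0.71 (SE 0.37, q = 0.800), neither called, so that a stage effect particular to iKO cells was not shown for them.

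**Figure D4:**
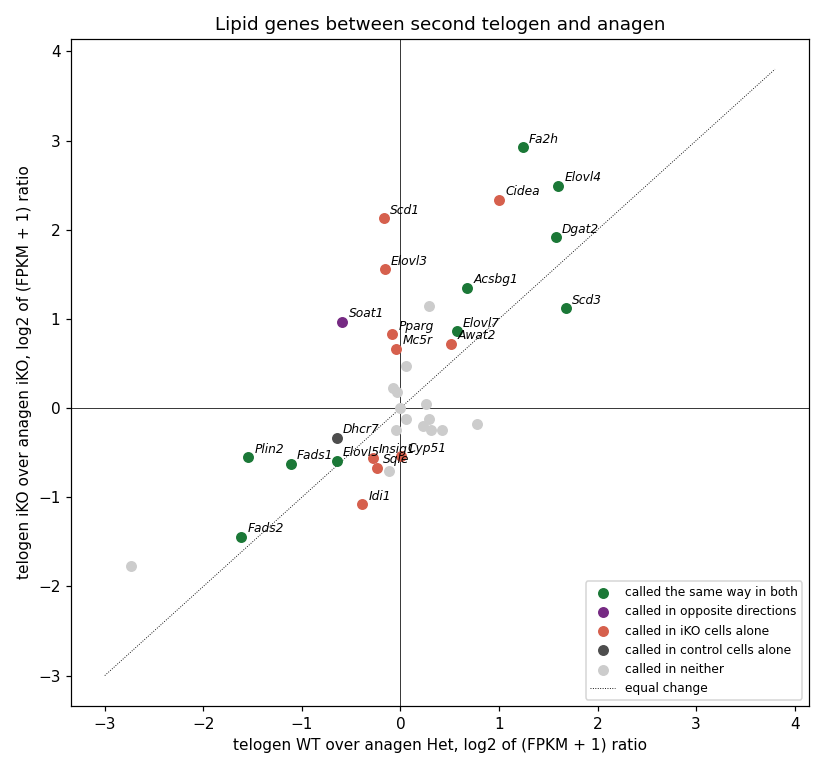
Log2 of the (FPKM + 1) ratio of each member for telogen iKO over anagen iKO cells (vertical) and telogen WT over anagen Het cells (horizontal), coloured by the authors' calls in both. The 6 members higher in telogen in both lie at the upper right, the 4 lower in both at the lower left, and Scd1 and Soat1 lie left of the vertical axis with positive values for iKO cells.

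The other lipid lists are read beside the 33.2% of all genes called between stages in iKO cells and the 25.4% in control cells. Of 18 tested sterol synthesis and uptake genes 7 were lower in telogen and 0 higher among iKO cells, and 4 were lower and 0 higher among control cells, where Insig2 was 2.10-fold and 1.95-fold lower in that order. Of 15 other sebaceous gland and wax genes 7 were higher and 2 lower among iKO cells, and 4 higher and 3 lower among control cells, and Cyp4f39, an omega-hydroxylase of barrier acids, was 4.86-fold higher in iKO and 3.85-fold higher in control cells. Of 17 ceramide and barrier genes 5 were higher and 1 lower in iKO, and 4 higher and 0 lower in control cells, with the lipoxygenase Alox12b 5.29-fold and 9.54-fold higher. Other fatty acid synthesis and elongation genes gave 6 higher and 4 lower of 14 in iKO, and 3 higher and 3 lower of 13 in control cells. Lipid storage genes gave 4 higher and 0 lower of 16 in iKO, and 2 higher and 1 lower of 15 in control cells. Fatty acid oxidation genes gave 2 higher and 1 lower of 15 in iKO, and 1 higher and 1 lower of 15 in control cells. Fatty acid activation and transport genes gave 3 higher and 2 lower of 10 in iKO, and 1 higher and 5 lower of 10 in control cells. Cholesterol efflux genes gave 4 higher and 2 lower of 13 in iKO, and 0 higher and 3 lower of 13 in control cells. In iKO cells the oxidation and storage lists, and in control cells the oxidation, storage, ceramide, sterol and efflux lists, had a smaller share called than all genes.

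Markers of other cells differed with stage as well. Summed fibroblast markers were 13.5 FPKM in telogen iKO against 54.7 in anagen iKO cells, with 3 of 6 called lower, and 23.3 FPKM in telogen WT against 103 in anagen Het cells, with 4 of 6 called lower. Among them Dcn was 38.6-fold lower in telogen among iKO cells and 59.5-fold lower among control cells. Summed immune markers were 95.7 FPKM in telogen iKO against 24.3 in anagen iKO cells, with 3 of 6 tested called higher and 1 lower, and 73.4 FPKM in telogen WT against 15.3 in anagen Het cells, with 1 of 6 tested called higher. Cd74 alone had 85.2 FPKM in telogen iKO and 17.5 in anagen iKO cells. It had 62.0 FPKM in telogen WT and 7.11 in anagen Het cells. Summed sebocyte and junctional zone markers were 437 FPKM in telogen iKO against 243 in anagen iKO cells, with 4 of 7 called higher and 1 lower, and 258 FPKM in telogen WT against 203 in anagen Het cells, with 2 called higher and 2 lower. Of 5 melanocyte markers 0 were called among iKO cells and 2 were called lower in telogen among control cells, Dct and Tyrp1. Of the stem cell markers 2 of 8 were called higher and 1 lower among iKO cells, and 3 of 7 tested were called higher among control cells. Of 7 adipocyte markers Fabp4 alone was tested and called lower in both, with 0.246 FPKM in telogen iKO against 18.7 in anagen iKO cells and 0.321 FPKM in telogen WT against 24.0 in anagen Het cells, while the other 6 lay at 0.129 FPKM or less in these 4 groups. The part of these cell types in the stage differences was not tested.

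Shh-Het cells of anagen II and first telogen gave 1 library each, so this pair has no test and no replicate check, and each number describes those 2 libraries. With a pseudocount of 1, 4 members were at least 2-fold higher in anagen II and 10 at least 2-fold lower. Of all 13601 genes with at least 1 FPKM in either library, 8.55% were past that fold upward and 14.1% downward, and 36 of the 37 members had such a level. The members' median log2 ratio was 0.04, against -0.12 over those genes.

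The higher values in anagen II were those of Fads2, Fads1, Scd2 and Sqle. Fads2 had 57.3 FPKM in anagen II against 2.15 in first telogen cells, a ratio of 26.7. Fads1 had 41.6 FPKM in anagen II against 6.29 in first telogen cells, a ratio of 6.61. Both lie close together on chromosome 19 of mm9, Fads2 at 10138653 to 10175993 and Fads1 at 10257377 to 10271362. Fads3, the third gene of that cluster and no member, had 13.2 FPKM in anagen II against 1.51 in first telogen cells. Scd2 had 54.6 FPKM in anagen II against 16.3 in first telogen cells, and Sqle had 30.1 FPKM in anagen II against 12.8 in first telogen cells. Fads2 in anagen II stood above each of the other 6 groups, which lay between 0.468 and 3.49 FPKM.

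The lower values in anagen II were led by Scd3, with 0.217 FPKM in anagen II against 12.5 in first telogen cells. Elovl4 had 5.92 FPKM in anagen II against 43.8 in first telogen cells, Elovl3 had 1.22 FPKM against 8.59 in the same order, and Elovl7 had 1.73 FPKM against 10.2. Fa2h, Far2, Acsbg1, Scd1, Cidea and Dgat2 were also past the fold, with first telogen values 2.55 to 5.56 times those of anagen II. All 6 members that were higher in second telogen in both iKO and control cells were among these 10, and Fads1 and Fads2 were among the 4 of the opposite direction, whereas Elovl5 and Plin2 differed 1.04-fold and 1.02-fold between both libraries. The 3 stage comparisons share no library. The share of all genes that overlap in this way was not computed, so the overlap only describes these members.

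**Figure D5:**
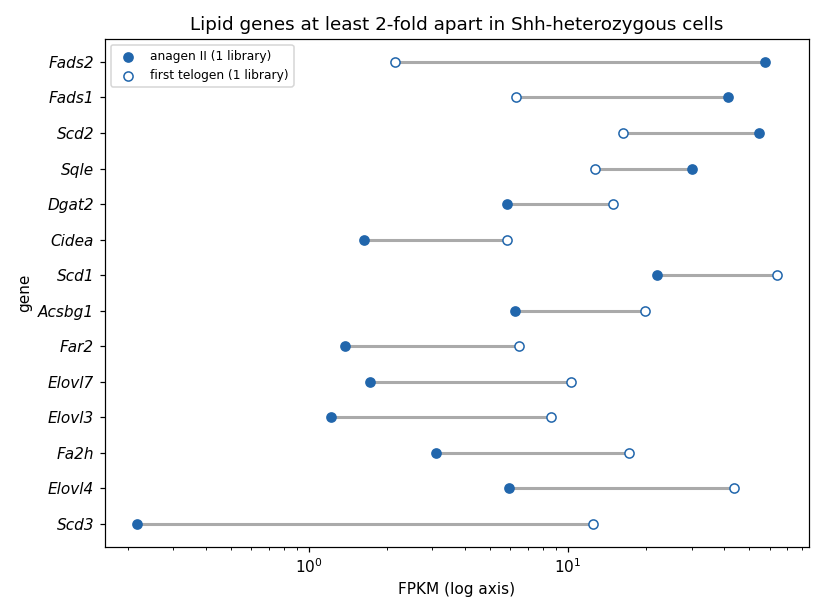
FPKM on a log axis of the 14 members at least 2-fold apart between anagen II (filled) and first telogen (open) Shh-Het cells, 1 library each. Fads2, Fads1, Scd2 and Sqle are higher in anagen II, and the other 10 lie lower there, down to 0.217 FPKM for Scd3.

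Markers of other cells differed in the same pair. Summed adipocyte markers were 40.8 FPKM in anagen II and 195 in first telogen cells, and summed immune markers were 31.4 FPKM in anagen II and 288 in first telogen cells. Summed sebocyte and junctional zone markers were 372 FPKM in anagen II and 240 in first telogen cells. Of these 7 markers 1 was past 2-fold upward and 0 downward. Summed melanocyte markers were 51.3 FPKM in anagen II and 13.4 in first telogen cells, with 4 of 5 past 2-fold upward. Of 8 stem cell markers 4 were past 2-fold downward. Lower in anagen II were also Cd36 at 2.89 FPKM against 21.2 in first telogen cells and Cfd at 0.0499 FPKM against 11.7. Of the other sterol genes, Insig2 had 107 FPKM in anagen II against 24.9 in first telogen cells. Of 20 lipid storage genes 1 was upward and 5 downward, of 16 other sebaceous and wax genes 1 was upward and 3 downward, and of 16 other fatty acid synthesis genes 2 were upward and 2 downward. Of 15 fatty acid activation genes 1 was upward and 3 downward, of 13 efflux genes 2 upward and 4 downward, of 18 ceramide genes 0 upward and 2 downward, and of 15 oxidation genes 0 either way. The part of fat, immune, fibroblast, sebocyte and melanocyte RNA in the members' values was not tested. Pparg, which adipocytes also express, had 0.600 FPKM in anagen II and 1.52 in first telogen cells.

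Across the 3 knockout comparisons, 3 of the 36 tested members were called in more than 1, beside 6.49% of all tested genes, a count near the background. Elovl3 was higher in telogen cKO and telogen iKO cells, and in anagen its call depended on the table. Elovl7 was higher in anagen iKO and telogen iKO cells, and in telogen cKO cells it had 3.09 FPKM against 3.01 in WT cells in the joint table. Scd3 was lower in telogen cKO and telogen iKO cells. The calls of Elovl3 and Scd3 rest on the same WT libraries in both comparisons. The anagen call of Elovl7 shares no library with its telogen call.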

How the data were processed

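Reads were processed by the submitters, whose notes name TopHat, Cufflinks, Cuffdiff and build mm9; versions and settings were not given in the sources. The authors deposited 3 tables of 23735 gene models: anagen, telogen and a joint one of 21 group pairs. Per the file headers, each holds FPKM pooled per group, their log2 fold, a test statistic (a score) and the p-value and q-value. Smallest deposited p-value: 5e-05. Each table has its own scaling: relative to it, joint FPKM were shifted by -0.08 (log2) in anagen and by 0.06 in telogen groups.

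From these were computed SE, medians with a pseudocount of 1 and z tests of differences, checked on simulated data, with Python 3.11.15, numpy 2.4.6, pandas 2.3.3 and scipy 1.17.1. All called members are named; other lists give up to 4 called genes by lowest p. Alternatives were another threshold, a filter of 1 FPKM, centring, other pseudocounts, another adjustment and the joint table. The 37 members, 8 other lipid lists and 6 marker lists were chosen with earlier results of these data known. The stage-effect difference test was added after the data were seen. Proteins were not used here, and results for some genes of the other lipid lists are not reported here.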

Additional observations from a re-analysis of the deposited data

Results flagged for a closer look

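The stage effect, telogen against anagen, differed between Foxc1 knockout and control cells for 3 lipid genes by a z test of the difference of both log2 folds, a test added after the data were seen. Scd1 differed by 2.35 on the log2 scale, with 101 FPKM in telogen iKO against 22.4 in anagen iKO cells and 26.7 FPKM in telogen WT against 30.2 in anagen Het cells. Soat1 differed by 2.04, with 5.94 FPKM in telogen iKO against 2.56 in anagen iKO cells and 1.89 FPKM in telogen WT against 3.34 in anagen Het cells. Fa2h differed by 1.84, with 19.7 FPKM in telogen iKO against 1.73 in anagen iKO cells and 5.29 FPKM in telogen WT against 1.66 in anagen Het cells, a call that ended with the larger of 2 SE estimates. Strain, sex, age, driver and tamoxifen of the telogen iKO and WT groups also differ, as does the Foxc1 genotype of the control pair, wild type against heterozygous, and these cannot be told apart from the loss of Foxc1.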

How the results depend on the processing

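No paired analysis was possible because each table holds 1 pooled value per group, and for the same reason no library could be left out. No result reversed under any alternative that was run. At q below 0.01 in place of 0.05, members higher in anagen iKO cells numbered 3 (Cyp51, Idi1 and Sqle) in place of 5, members higher in telogen cKO cells 0 in place of 1, members lower in telogen iKO against WT cells 0 in place of 1, and members lower in telogen iKO against anagen iKO cells 4 in place of 8. In the joint table, 1 member was lower in anagen iKO cells in place of 0 (Dhcr7), 3 were higher in telogen cKO cells in place of 1 (Cyp51, Elovl3 and Idi1) and 2 were lower in place of 1 (Elovl5 and Scd3). The cause was not tested. The other 54 recomputed counts and medians kept within their limits. Of the further values, which include single genes, counts over all genes and the summed level of Hmgcs1, 228 kept their side or limits. Among single genes, 17 calls were lost and 7 gained. Centring on all genes could turn the direction of a call but could not end it. Its 10 counts and 61 other values, all unchanged, are therefore a weak check. Counts over all genes moved as well: at q below 0.01, 424 in place of 697 were lower in anagen iKO, 232 in place of 389 lower in telogen cKO, 607 in place of 962 higher and 408 in place of 807 lower in telogen iKO against WT, and 1089 in place of 1655 lower in telogen WT against anagen Het cells, and in telogen cKO cells 885 in place of 508 were higher and 792 in place of 389 lower when taken from the joint table. For Fa2h, the stage-effect difference of 1.84 was no longer called with the larger of 2 SE estimates. Pooled values of 2 libraries, or of 1, and an unknown depth limit what low genes such as Pparg, Mc5r, Scd3 and Fads2 can show.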
